A study of Homo sapiens with 12 samples.

Results

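The mRNAs of 10 genes that recruit or form the cytoplasmic deadenylation machinery were followed in A375 cells, a human melanoma line with mutated BRAF. They were chosen by name from the 44659 genes of the raw count table, as ZFP36, ZFP36L1, ZFP36L2, BTG1, BTG2, BTG3, TOB1, TOB2, CNOT6 and CNOT6L, and all 10 passed the filter on low counts. The study cultured these cells for 24 h under 4 conditions with 3 libraries each. MAPKi cells received 500 nM of vemurafenib, a BRAF inhibitor, together with 500 nM of cobimetinib, a MEK inhibitor, and DMSO cells received the solvent alone. Gln-depleted cells were kept without glutamine, and CTRL cells had 2 mM glutamine. The MAPKi and DMSO cells also had 2 mM glutamine, and all groups are the same line, so each condition describes 1 cell line. MAPKi was set against DMSO and Gln-depleted against CTRL, to ask how these mRNAs respond when the MAPK pathway is blocked and when an amino acid is withdrawn. The labels describe cytoplasmic lysates, whereas the study's methods speak of total RNA.

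Libraries held 31056296 to 40071368 counted reads. MAPKi and DMSO libraries belong to sequencing batch 2 and the glutamine libraries to sequencing batch 1, so the 2 experiments never share a batch. Replicate 1 of CTRL and of Gln-depleted came from experimental batch 1 and replicates 2 and 3 from experimental batch 2, and replicate 1 stood apart from the others in both groups (chi-square per degree of freedom of 191 to 218 against the other replicates, and 39.5 and 71.5 between those). DUSP6, a phosphatase gene switched on by MAPK signalling, had a mean normalised count of 4536 in DMSO and 5.98 in MAPKi libraries. All 10 melanocytic lineage markers were detected, while the keratinocyte markers KRT5 and KRT1 and the leukocyte marker CD3E were at 0. Other markers of these types were present, with group means of 1351 to 2905 for KRT10 (keratinocyte list), 131 to 300.4 for VWF (endothelial) and 30.5 to 50.2 for LYZ (leukocyte). With MAPKi, edgeR called VWF higher and, at low counts, TP63 (keratinocyte) higher and PTPRC (leukocyte) lower. TP63 had means of 4.09 in DMSO and 16.9 in MAPKi libraries, and PTPRC of 15.7 and 4.47. DESeq2 called none of these markers. The summed melanocytic markers ranged from 54580 to 57970 in DMSO and from 315500 to 398100 in MAPKi libraries. Most of that rise was DCT, with group means of 7083 and 274800, while S100B of the same list fell from 6124 to 1395. The summed markers ranged from 43010 to 50840 in CTRL and from 27330 to 29630 in Gln-depleted libraries, and their part in the results below was not tested. The summed level of 10 MAPK output genes, each of which fell with MAPKi, ranged from 118800 to 136700 in CTRL and from 179900 to 226400 in Gln-depleted libraries, and its part was not tested either. In such bulk RNA, fewer cells with a transcript and less of it per cell cannot be told apart. Beyond the experimental batches, the labels do not say whether replicates were separate cultures, and where they were not, p-values measure only the spread between these libraries, which may be technical.

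Most cytoplasmic mRNAs are degraded after their poly(A) tail has been shortened by the CCR4-NOT complex. ZFP36 (tristetraprolin), ZFP36L1 and ZFP36L2 are zinc finger proteins that bind AU-rich elements in 3′ untranslated regions (3′UTRs) and bring the complex to those mRNAs. BTG and TOB proteins bind the deadenylase subunits CNOT7 and CNOT8 and are known as antiproliferative factors, and TOB1 and TOB2 also contact the poly(A)-binding protein. CNOT6 and CNOT6L are alternative catalytic subunits of the complex. Several of these genes are themselves rapidly induced, and ZFP36 is known to act on its own mRNA.

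The core of the AU-rich element, TATTTAT in DNA letters, is shown for the genes called in either experiment that hold it and for ZFP36L1, whose adjusted p lay next to the threshold with glutamine depletion, because it is the sequence that the ZFP36 proteins read. The element occurred at least once in the 3′UTR of 9 of the 10 genes, and in 37.1% of the 12525 tested genes with an annotated 3′UTR. That share is not matched for length. Among tested genes with a 3′UTR length within 20% of the gene's own, it ranged from 13.4% for BTG3 to 78.7% for CNOT6L. Capitals mark the element in the first such site of each 3′UTR, given 5′ to 3′ on the strand of the gene (GENCODE annotation, GRCh38).
ZFP36 (chr19:39409182-39409208, plus strand): atgggcccttTATTTATgacgacttta
ZFP36L1 (chr14:68788337-68788363, minus strand): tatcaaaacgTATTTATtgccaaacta
BTG1 (chr12:92140771-92140797, minus strand): atagatttctTATTTATctgaaggtat
BTG3 (chr21:17593832-17593858, minus strand): tggacttgagTATTTATatattgtgca
TOB2 (chr22:41435381-41435407, minus strand): cgcaagtcctTATTTATatgtgaggct
ZFP36, ZFP36L1 and ZFP36L2 held 3 such sites each. Of the 1238 tested genes with a 3′UTR length within 20% of that of ZFP36 (708 bases), 1.37% held as many. BTG3 held 2 sites in 440 bases, and 2.15% of 975 genes of similar length held as many. BTG1 held 1 site in 3802 bases, where 62.5% of genes of similar length held at least 1. TOB1 held none in 757 bases, but it held 4 copies of ATTTA, the shorter run of letters inside the element. A match describes the letters and is no measure of binding.

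The coding sequences of the 10 genes differed widely in base composition. ZFP36 (66.8% GC), ZFP36L1 (63.6%), ZFP36L2 (71.2%) and BTG2 (63.9%) lay far above the median of 52.1% over tested genes, while CNOT6 (43.1%), CNOT6L (43.4%), BTG3 (44.9%) and TOB1 (45.7%) lay below it. Codons for aspartate and glutamate together made up 6.63% of the coding sequence in ZFP36 and 11.5% in BTG3, the lowest and highest of the 10, and all 10 lay below the median over tested genes.

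On GRCh38 the genes called in either experiment lie on different chromosomes, ZFP36 at chr19:39406847-39409407, BTG1 at chr12:92140278-92145846, BTG3 at chr21:17593653-17612901, TOB1 at chr17:50862223-50867978 and TOB2 at chr22:41433494-41446801. ZFP36L1 lies at chr14:68787655-68796243.

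BTG1 was the only one of the 10 genes called in both experiments, and its promoter is shown for that reason. The 300 bases run from 250 before to 50 after the annotated start (RefSeq, GRCh38.p14, chr12:92145797-92146096, minus strand). Capitals mark TGTTTAC, a forkhead-type motif, at 209 to 203 bases before the start.
BTG1 promoter: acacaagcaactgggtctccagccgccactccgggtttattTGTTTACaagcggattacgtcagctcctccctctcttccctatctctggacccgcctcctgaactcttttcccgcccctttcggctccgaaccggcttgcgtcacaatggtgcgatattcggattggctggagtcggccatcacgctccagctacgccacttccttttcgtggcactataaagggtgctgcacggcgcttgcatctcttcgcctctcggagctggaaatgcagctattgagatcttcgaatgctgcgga
TGTTTAC was found, on either strand, in 2.85% of 22199 promoters of this length. Also searched on both strands were the CArG box (1.25% of promoters), TGATGCAA (0.676%), CACGTG (8.34%), TGACGTCA (2.26%), TGANTCA (6.15%) and CCGGAAG (12.8%). Besides BTG1, a promoter of ZFP36L1 held TGACGTCA and that of BTG3 held CCGGAAG, and the other promoters of the 10 genes held none of these letters. The match is a description of the letters, and no binding was measured.

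In MAPKi-treated cells, mRNAs of ZFP36, BTG1, TOB1 and TOB2 rose and that of BTG3 fell. A gene was called when its change passed a limit of 1.5-fold in either direction (edgeR, adjusted p of at most 0.05). By that rule 5 of the 10 genes were called, 4 upwards and 1 downwards, while 35.5% of all 12595 tested genes were called, 16.7% upwards and 18.8% downwards. Against no change at all, all 10 genes passed, 5 higher and 5 lower, BTG2 among them only in some settings, beside 78.2% of tested genes (38.4% higher and 39.8% lower). MAPKi and DMSO libraries did not overlap for any of the 10, and the background of genes without overlap was 39.6% higher and 41.1% lower in MAPKi.

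Among the AU-rich element-binding factors, ZFP36 had normalised counts of 608, 687 and 752 in DMSO and of 1101, 1222 and 1142 in MAPKi libraries. Every MAPKi library was above every DMSO library. The change was 1.69-fold, a log2 fold change of 0.76 with a standard error of 0.079 (edgeR adjusted p = 0.02197 against the 1.5-fold limit). This call was lost with GC correction (log2 fold change 0.60, adjusted p = 0.4594), with DESeq2 (adjusted p = 0.1491), in the fit of all 12 libraries (adjusted p = 0.2599), without DMSO replicate 1 (adjusted p = 0.07514) and without MAPKi replicate 2 (adjusted p = 0.07456).

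ZFP36L1 had 4315, 4365 and 4686 in DMSO and 3022, 3314 and 3129 in MAPKi libraries. All MAPKi values lay below the DMSO values. The log2 fold change of −0.50 differed from no change (edgeR adjusted p = 1.216e-05) but did not reach the 1.5-fold limit. ZFP36L2 had 3796, 4149 and 3709 in DMSO and 3413, 3240 and 3350 in MAPKi libraries, a log2 difference of −0.22 (edgeR adjusted p = 0.003167 against no change). The libraries separated here too, by a smaller distance. ZFP36 thus had a log2 fold change above 0, and both of its paralogues had values below 0.

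Of the BTG and TOB genes, TOB1 showed the highest log2 fold change. Its normalised counts were 1730, 1514 and 1657 in DMSO and 4045, 3593 and 3518 in MAPKi libraries. Its rise was 2.28-fold (log2 fold change 1.19, standard error 0.068, edgeR adjusted p = 5.456e-06 against the limit). TOB2, its close relative, had 2586, 2584 and 2767 in DMSO and 5635, 5610 and 5675 in MAPKi libraries. Its rise was 2.13-fold (log2 fold change 1.09, standard error 0.044, edgeR adjusted p = 7.212e-07). For both TOB genes the lowest MAPKi library was above the highest DMSO library.

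BTG1, which is often mutated in lymphoma, had 4625, 4483 and 4350 in DMSO and 10281, 9405 and 9412 in MAPKi libraries. It rose 2.16-fold (log2 fold change 1.11, standard error 0.052, edgeR adjusted p = 1.793e-06). BTG2, a target of p53, had 375.4, 373 and 441 in DMSO and 463, 453 and 466 in MAPKi libraries. Its groups were close, and its log2 fold change of 0.22 passed against no change (edgeR adjusted p = 0.03844) but was not called. That pass was lost with GC correction (log2 fold change 0.078, adjusted p = 0.438), in the fit of all 12 libraries (adjusted p = 0.369), with no count filter (adjusted p = 0.05191), and without any single library other than DMSO replicate 3 (adjusted p of 0.0651 to 0.1102).

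BTG3 went the other way from BTG1 and the TOB genes. It had 1342, 1014 and 1081 in DMSO and 536, 626 and 612 in MAPKi libraries. The level in MAPKi was 0.516 of that in DMSO (log2 fold change −0.95, standard error 0.11, edgeR adjusted p = 0.002628). The gene lies within the annotated span of CXADR, a cell adhesion receptor gene, whose mean rose from 1954 to 3997 (log2 fold change 1.03, edgeR adjusted p = 5.019e-05). Whether reads were counted by strand is not given in the sources used here, so reads of the overlapping pair may be mixed. BTG4, a relative expressed mainly in oocytes, was too low to test, with 2, 2 and 0 reads in DMSO and 20, 13 and 7 in MAPKi libraries.

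TOB1-AS1, an RNA antisense to TOB1, had means of 72.1 in DMSO and 74.9 in MAPKi libraries, and TOB2P1, a pseudogene of TOB2, had 90.9 and 140. Neither was called, and reads shared with TOB1 and TOB2 cannot be told apart without the strand or the sequences.

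CNOT6 and CNOT6L, the catalytic subunits, were not called. CNOT6 had 2991, 3045 and 2947 in DMSO and 2301, 2344 and 2433 in MAPKi libraries (log2 fold change −0.34, edgeR adjusted p = 2.96e-05 against no change). CNOT6L had 2315, 2226 and 2317 in DMSO and 1493, 1524 and 1532 in MAPKi libraries. Its log2 fold change of −0.59 lay at the limit and did not pass the test against it (edgeR adjusted p = 0.4519). Both had lower values in each MAPKi library than in any DMSO library.

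**Figure D1:**
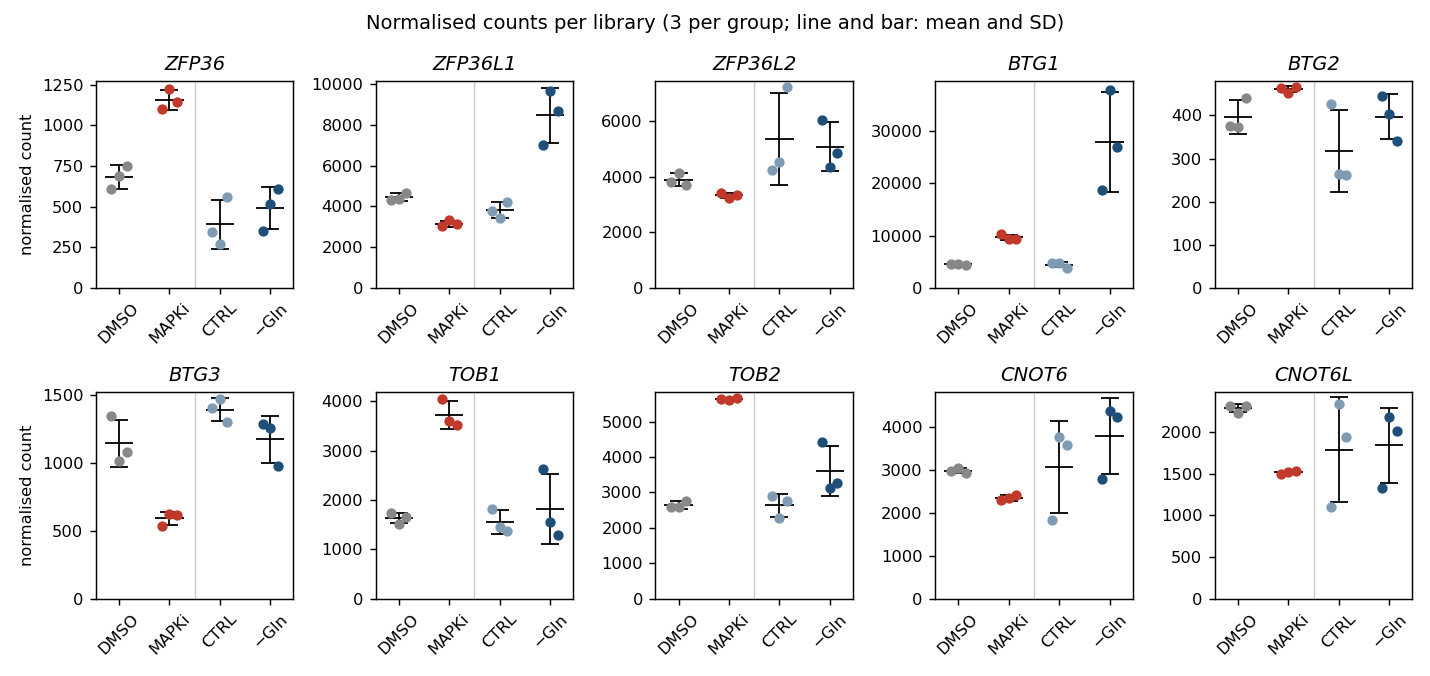
Normalised counts (vertical axis, from 0, separate scale per gene) of the 10 genes in each library of the 4 groups, with DMSO and MAPKi left of the grey line and CTRL and Gln-depleted (−Gln) right of it. Points are libraries, the horizontal line is the mean and the bar the SD (n = 3). BTG1 reached 37908 in a Gln-depleted library and stayed at or below 10281 in MAPKi libraries.

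In Gln-depleted cells BTG1 rose and no other gene of the 10 was called, although ZFP36L1 had a 2.21-fold higher level with an adjusted p next to the threshold. The background was 5.59% of 12514 tested genes called, 3.48% upwards and 2.10% downwards, and 17.9% differed from no change (9.45% higher and 8.43% lower). BTG1 had normalised counts of 4684, 4740 and 3844 in CTRL and of 18779, 37908 and 26983 in Gln-depleted libraries. The lowest Gln-depleted library was well above the highest CTRL library. The rise was 6.31-fold (log2 fold change 2.66, standard error 0.28, edgeR adjusted p = 0.002837 against the limit), and within experimental batch 2 alone the log2 fold change was 2.92 (adjusted p = 0.002693). LINC01619, a noncoding RNA whose annotated span overlaps BTG1, had means of 14.3 and 38.6 and was not called.

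ZFP36L1 had 3801, 3445 and 4235 in CTRL and 7017, 9687 and 8718 in Gln-depleted libraries. The groups did not overlap, and its log2 fold change of 1.15 (standard error 0.20) differed from no change (edgeR adjusted p = 0.008584). Against the 1.5-fold limit the adjusted p was 0.0508, just outside the threshold. With the replicate number as a block it was 0.007797, within experimental batch 2 it was 0.01787, and without Gln-depleted replicate 1 it was 0.03086. With DESeq2 it was 0.1462, and without any other single library it lay between 0.08397 and 0.1925. Same-numbered CTRL and Gln-depleted libraries shared their experimental batch in the labels, so the blocked value compares libraries within it.

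The other AU-rich element-binding factors overlapped between the groups. ZFP36 had 343, 270 and 557 in CTRL and 350, 517 and 607 in Gln-depleted libraries (log2 fold change 0.33, edgeR adjusted p = 0.5052 against no change). ZFP36L2 had 4239, 4538 and 7244 in CTRL and 6056, 4345 and 4855 in Gln-depleted libraries (log2 fold change −0.07). The spread of ZFP36L2 within CTRL exceeded its difference between the groups.

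TOB2 had 2885, 2271 and 2749 in CTRL and 4416, 3135 and 3265 in Gln-depleted libraries. Its groups did not overlap, but its log2 fold change of 0.45 did not pass against no change (edgeR adjusted p = 0.1634). With the replicate block the adjusted p against no change was 0.01957. TOB1 had 1820, 1455 and 1367 in CTRL and 2629, 1544 and 1280 in Gln-depleted libraries, which overlapped (log2 fold change 0.23).

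BTG3 had 1401, 1471 and 1300 in CTRL and 1287, 1256 and 977 in Gln-depleted libraries, with no overlap and a log2 fold change of −0.25 (edgeR adjusted p = 0.3941 against no change). BTG2 had 426, 263 and 262 in CTRL and 445, 404 and 341 in Gln-depleted libraries (log2 fold change 0.32). Neither BTG3 nor BTG2 passed either test. CXADR, which overlaps BTG3, had means of 1886 in CTRL and 1063 in Gln-depleted libraries. Its log2 fold change of −0.83 did not pass against no change (edgeR adjusted p = 0.1181), and the part of shared reads in BTG3 was not tested. BTG1, ZFP36L1 and TOB2 were higher and BTG3 lower without overlap, beside 20.1% of tested genes that were higher and 19.8% that were lower in this way.

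CNOT6 had 1838, 3777 and 3597 in CTRL and 2787, 4391 and 4243 in Gln-depleted libraries. CNOT6L had 1096, 2330 and 1934 in CTRL and 1332, 2184 and 2009 in Gln-depleted libraries. Replicate 1, from experimental batch 1, was the lowest library in each group for both genes. Their log2 fold changes were 0.31 for CNOT6 and 0.04 for CNOT6L, within the spread between libraries.

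**Figure D2:**
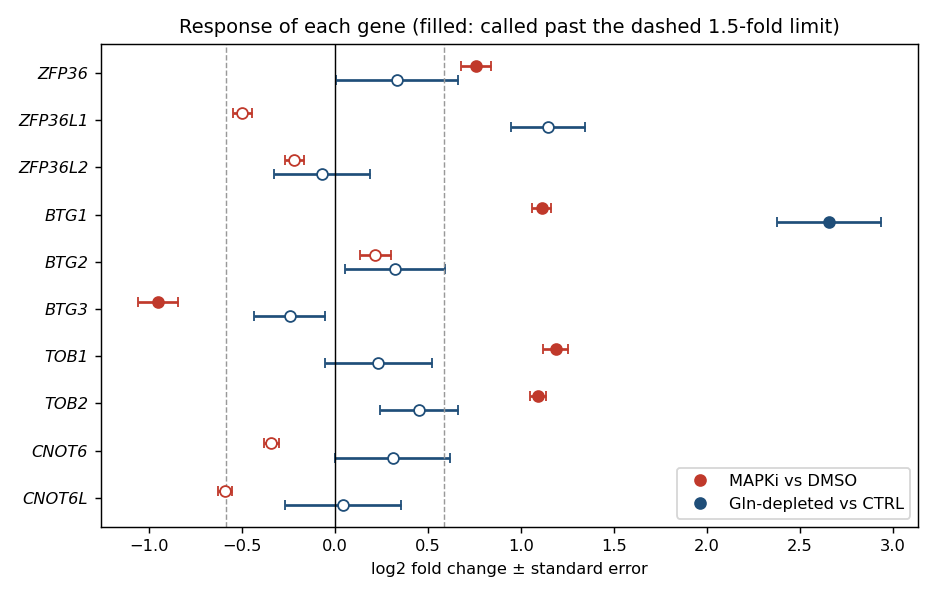
Log2 fold change (horizontal axis) with its standard error for the 10 genes, MAPKi against DMSO in red and Gln-depleted against CTRL in blue. Filled points passed the 1.5-fold limit, drawn as dashed lines, and BTG1 is the only gene filled in both, at 1.11 and 2.66.

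The responses to the 2 treatments were set against each other in a fit of all 12 libraries, which gave the 4 groups 1 shared estimate of the spread. Replicates differed more in the glutamine groups (chi-square per degree of freedom of 39.5 to 218) than in MAPKi and DMSO (3.44 to 15.1). Adjusted p-values of the difference rest on that shared spread and may be too small for the glutamine libraries. They differed for 5 of the 10 genes, beside 40.5% of 12627 tested genes, with the MAPKi response higher in 19.6% and lower in 20.9% (edgeR, adjusted p of at most 0.05 against no difference). ZFP36L1 had the lower response to MAPKi (difference −1.59, standard error 0.18, edgeR adjusted p = 4.677e-05). BTG1 rose in both experiments, and the difference between its responses was −1.48 (standard error 0.29, edgeR adjusted p = 0.001673). TOB1 (difference 1.01, edgeR adjusted p = 0.02585) and TOB2 (difference 0.70, edgeR adjusted p = 0.0177) responded more to MAPKi. BTG3 (difference −0.65, edgeR adjusted p = 0.02538) had the lower response to MAPKi. The TOB1 call was lost without CTRL replicate 1, DMSO replicate 2 or 3, Gln-depleted replicate 2 or MAPKi replicate 1, with adjusted p up to 0.06723. That of BTG3 was lost without CTRL replicate 3, DMSO replicate 1, Gln-depleted replicate 2 or MAPKi replicate 1, with adjusted p up to 0.06976, and with GC correction (adjusted p = 0.1005). That of TOB2 was lost without DMSO replicate 2 (adjusted p = 0.05122).

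For ZFP36 the difference of 0.48 had a standard error of 0.35 (edgeR adjusted p = 0.2985). CNOT6 and CNOT6L had differences of −0.60 and −0.58 that did not pass (edgeR adjusted p = 0.1679 and 0.1853). With the replicate block both passed (adjusted p = 0.001869 and 0.002026). Sequencing batch cannot be told apart from experiment in this comparison, since each experiment was sequenced in its own batch.

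Levels can be compared between genes only per length, so depth-scaled counts (CPM) were divided by the length of the merged exons in kilobases. On that scale ZFP36L2 was first in CTRL, at 43.0 ± 12.5 (SD, n = 3), and in DMSO, at 31.2 ± 1.72. BTG1 followed at 27.3 ± 3.54 in CTRL and 27.4 ± 0.816 in DMSO, and neither pair of neighbours overlapped. BTG2 was last in both, at 4.27 ± 0.434 in DMSO, and at 3.45 ± 1.09 in CTRL, where it overlapped CNOT6L. In CTRL, TOB1, TOB2, BTG3, ZFP36L1 and CNOT6 followed BTG1 in that order, and each overlapped its neighbour in this run of genes.

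With MAPKi the order became BTG1 at 59.8 ± 3.36, TOB1 at 44.1 ± 3.59 and TOB2 at 38.9 ± 0.206 per kilobase. ZFP36L2 came next at 27.0 ± 0.778, and CNOT6L was last at 4.85 ± 0.0448. No neighbours overlapped in MAPKi libraries. In Gln-depleted libraries BTG1 stood at 166 ± 56.4, and ZFP36L2 (39.9 ± 7.06) and ZFP36L1 (38.0 ± 5.89) overlapped behind it.

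Shares of the summed level within each family show the same data independent of library scaling. ZFP36 made up 16.5% ± 1.37 of its family in DMSO and 29.6% ± 1.12 in MAPKi libraries (SD, n = 3). ZFP36L1 went from 33.0% ± 1.47 to 24.7% ± 0.775. In the glutamine experiment ZFP36L1 made up 27.2% ± 4.17 in CTRL and 44.6% ± 6.85 in Gln-depleted libraries, while ZFP36 was at 8.66% ± 1.32 and 8.45% ± 2.15. The ZFP36 shares thus separated with MAPKi and overlapped with glutamine depletion.

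BTG1 made up 32.0% ± 2.45 of the BTG and TOB level in CTRL and 71.0% ± 11.3 in Gln-depleted libraries. With MAPKi its share was 38.4% ± 0.547, against 32.8% ± 1.32 in DMSO. BTG3 had 17.6% ± 1.87 in DMSO and 4.95% ± 0.577 in MAPKi libraries, and 21.2% ± 1.61 in CTRL and 6.57% ± 1.59 in Gln-depleted libraries. In the glutamine experiment BTG3 had the lower share beside the risen BTG1, whereas its own count passed neither test. CNOT6 held 65.1% ± 0.867 of the CNOT6 and CNOT6L level in DMSO and 68.9% ± 0.381 in MAPKi libraries. Shares of a family sum to 100%, so they are not separate comparisons, and those of CNOT6 and CNOT6L mirror each other. Of 20 shares compared, that of ZFP36 with glutamine depletion overlapped, and the other 19 gave a two-sided exact permutation p of 0.10, the smallest that 3 against 3 libraries allow (adjusted over the 20, p = 0.1053).

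**Figure D3:**
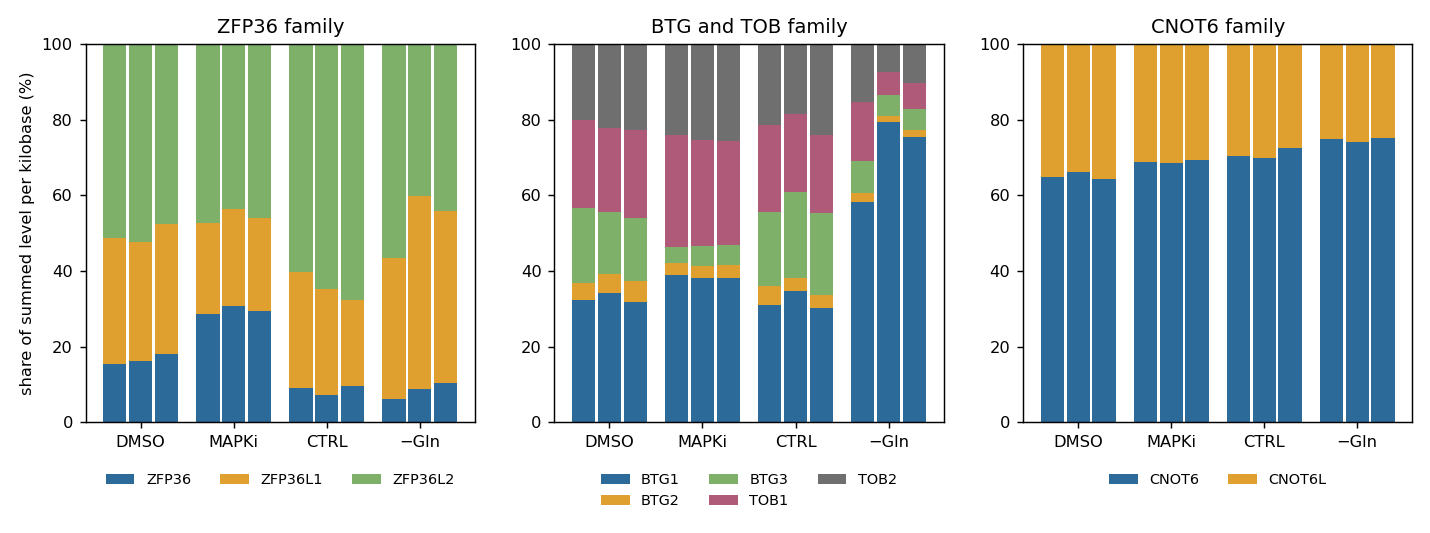
Share of each gene (vertical axis, %) in the summed level per kilobase of its family, 1 bar per library and 3 libraries per group. BTG1 takes 71.0% on average in Gln-depleted libraries (−Gln) and 32.0% in CTRL.

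As a description, the genes most like 4 of the 10 across all 12 libraries were found by Pearson's r on log2 CPM, centred within each experiment, over 10739 genes. Centring takes out the mean difference between the 2 sequencing batches, but not that between the experimental batches of the glutamine libraries. No p is given. CNOT6 was lowest in replicate 1 of both glutamine groups, so that batch enters its r, and its part was not tested. For TOB1 these were GORASP1 (r = 0.990), BTBD9 (r = 0.984) and IL17RA (r = 0.984). For CNOT6 they were ZNF146 (r = 0.993), SUZ12 (r = 0.992) and TERF1 (r = 0.992). BTG2 was closest to DGKA (r = 0.975), TSG101 (r = 0.968) and USP20 (r = 0.966). ZFP36 was closest to ACYP2 (r = 0.942), MIEN1 (r = 0.929) and ZNF580 (r = 0.924).

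The partners of these factors are given by list, beside 18.8% of all tested genes that fell with MAPKi and 16.7% that rose. With glutamine depletion 2.10% fell and 3.48% rose. Against no change, at an adjusted p of at most 0.05, 39.8% were lower and 38.4% higher with MAPKi. With glutamine depletion these were 8.43% and 9.45%. The share of all tested genes at an unadjusted p under 0.05 was not taken, so unadjusted counts below stand without their own background. Of 10 other CCR4-NOT subunits, CNOT9 fell (log2 fold change −0.84) and none rose by edgeR or DESeq2 (1 higher and 8 lower against no change). The list's median was −0.36 beside −0.01 over all tested genes. Of 13 other deadenylases and poly(A)-binding proteins, NOCT (−2.22), a circadian deadenylase family member, and PABPC4 (−0.82), a poly(A)-binding protein, fell. None rose by either tool (1 higher and 9 lower against no change), and the median was −0.34. The shares that fell in both lists were not above the 18.8% of all tested genes. With glutamine depletion edgeR, with or without the replicate block, and DESeq2 called none of either list. Nor did any of them pass against no change at the adjusted p. At an unadjusted p under 0.05, 3 of the CCR4-NOT subunits were higher. So were 2 of the deadenylases and poly(A)-binding proteins, with 1 lower.

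Downstream of deadenylation, 7 of 17 decapping and 5′ decay genes fell with MAPKi and none rose by edgeR or DESeq2 (1 higher and 12 lower against no change), with a median of −0.26. They included DCPS (−1.38), the scavenger decapping enzyme, DCP2 (−1.03), the decapping enzyme, and LSM7 (−1.35) and LSM4 (−1.04), subunits of the LSM ring. Of 14 exosome and SKI complex genes 7 fell and none rose by edgeR (2 higher and 9 lower against no change), and 6 fell by DESeq2. The median was −0.59, with EXOSC9 (−1.81), EXOSC8 (−1.77), EXOSC2 (−1.56) and EXOSC7 (−1.25) furthest. In neither list was a gene called with glutamine depletion by edgeR or DESeq2. Against no change 1 decapping gene was higher, and 2 exosome and SKI genes were higher and 2 lower. Unadjusted, 3 decapping genes were higher, and 3 exosome and SKI genes were higher and 3 lower. With the replicate block, which compares same-numbered libraries, 1 decapping gene rose, and 2 exosome and SKI genes rose and 2 fell. Over all 12514 tested genes the block called 1107 higher and 981 lower.

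Other RNA-binding adaptors were mixed. Of 21 tested, 4 rose with MAPKi by edgeR and 3 by DESeq2, and 2 fell by either tool, with a median of 0.32. Over all tested genes 16.7% rose and 18.8% fell. The risen genes included CPEB3 (1.25), a cytoplasmic polyadenylation element-binding protein, and ZC3H12A (0.95), an endonuclease. Those that fell were NANOS1 (−5.55) and SAMD4A (−1.38). With glutamine depletion CPEB4 alone rose (1.98, edgeR adjusted p = 0.04735). With the replicate block 4 rose, beside 1107 of all 12514 tested genes. Of 9 other AU-rich element-binding proteins 4 fell with MAPKi by edgeR, namely HNRNPD (−1.22), HNRNPAB (−1.07), ELAVL1 (−0.997) and KHSRP (−0.69). DESeq2 called 3 lower, none rose by either tool, and the median was −0.61. HNRNPD also fell with glutamine depletion (−1.26, edgeR adjusted p = 0.02932).

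**Figure D4:**
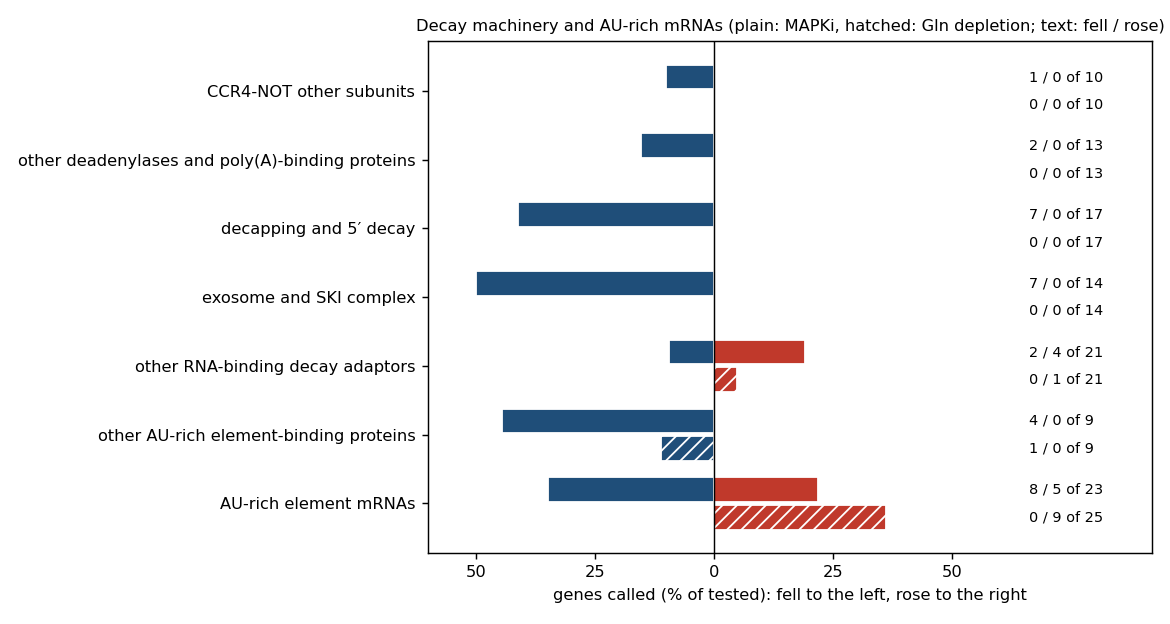
Share of tested genes in each list (horizontal axis, %) that fell (blue, to the left) or rose (red, to the right), with plain bars for MAPKi and hatched bars for glutamine depletion. The exosome and SKI list has 7 of 14 genes to the left with MAPKi and none in either direction with glutamine depletion.

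The mRNAs known for AU-rich elements, which the ZFP36 proteins can bind, went in both directions with MAPKi. Of 36 listed 23 were tested, and by edgeR 5 rose and 8 fell, with a median of −0.29. By DESeq2, and with the replicate block, 4 rose and 8 fell. IL11, among the 5, had means of only 5.10 in DMSO and 16.3 in MAPKi libraries. It passed the filter on low counts through the MAPKi group alone, and the block did not call it. The largest changes were those of EGR1 (−4.09) and MYC (−4.08), both transcription factors, LIF (−3.62), a cytokine, and CCND1 (−2.89), cyclin D1. With glutamine depletion 9 of 25 rose and none fell by edgeR or DESeq2. Over all tested genes edgeR called 3.48% higher and 2.10% lower. Against no change 11 of the list were higher and 2 lower (13 and 3 unadjusted), beside 9.45% and 8.43% of all tested genes. The rises were led by IL11 (6.87, a cytokine) and VEGFA (3.40, an angiogenic factor), and the median log2 fold change of the list was 1.27. With the replicate block 13 rose and 1 fell, beside 1107 higher and 981 lower of all 12514 tested genes. The list was not tested as a whole, and the counts used here do not measure decay. The study measured translation-dependent decay of mRNAs with MAPKi in a separate experiment, and also lists mRNAs by it for glutamine depletion. Those data were not used here.

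**Figure D5:**
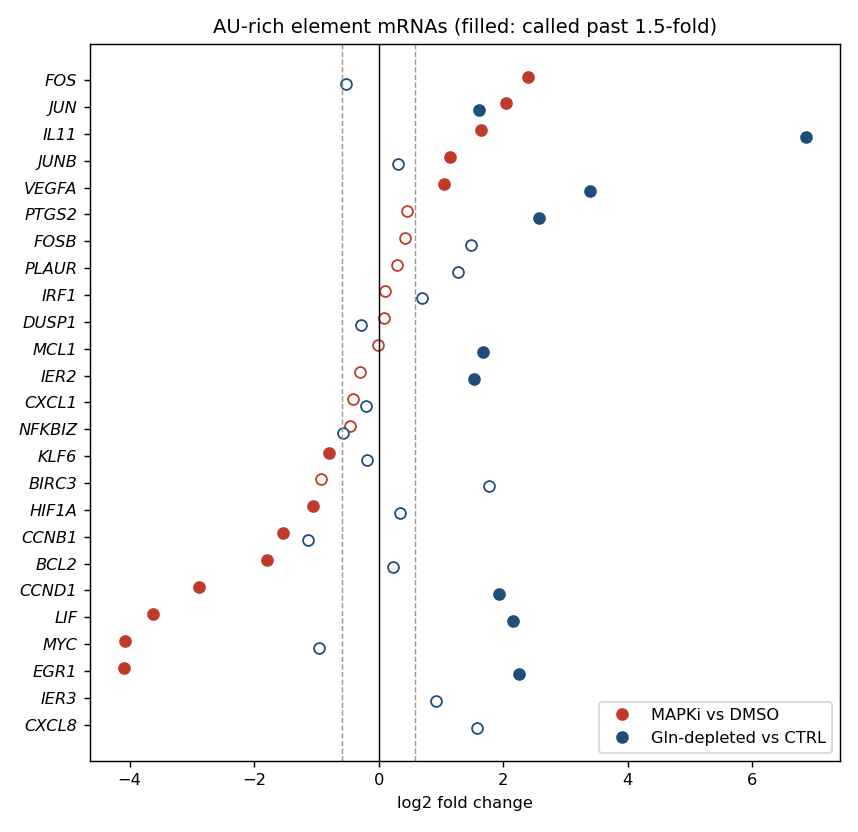
Log2 fold change (horizontal axis) of mRNAs with AU-rich elements, MAPKi against DMSO in red and Gln-depleted against CTRL in blue, filled where the 1.5-fold limit (dashed lines) was passed. EGR1 lies at −4.09 with MAPKi, and IL11 lies at 6.87 with glutamine depletion.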

How the data were processed

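RNA of A375 cells was depleted of ribosomal RNA and sequenced in 12 libraries (4 groups of 3). Per the submitters' processing notes and the study's methods, the authors trimmed reads with fastp 0.20.1, aligned them to GRCh38.p13 with HISAT2 2.2.1 and counted them per gene with HTSeq 0.13.5. The deposited values are raw counts, and the strand setting is not given in the sources used here. From 44659 genes, those matched to protein-coding RefSeq genes (19376) with a mean normalised count of at least 10 were tested. TMM factors, quasi-likelihood fits and the test against a 1.5-fold limit came from edgeR 4.0.16 (R 4.3.3), per experiment, with Benjamini-Hochberg adjustment over all tested genes and an adjusted p of 0.05. DESeq2 1.42.0 was an alternative. The difference between responses was tested in 1 fit of all 12 libraries. The fits were tried on simulated counts, whose values are not given. Family shares used scipy 1.17.1 (exact permutation). Groups came from the labels. Alternatives changed the normalisation, filters, limit, GC correction, replicate block, library set and gene length.

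Named were all 10 genes, per list up to 4 called genes of largest change with MAPKi and 2 with glutamine depletion, and the 3 genes most like each of 4 of the 10. The 10 genes and the lists were chosen with earlier results of these data known. Same-numbered libraries deviated together in the glutamine experiment (r = 0.584, 0.441 and 0.386). They shared their experimental batch in the labels, where replicates 2 and 3 both belong to batch 2, so the replicate block is finer than the batch.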

Additional observations from a re-analysis of the deposited data

Results flagged for a closer look

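The responses of 5 genes to MAPKi and to glutamine depletion differed by a test of the difference itself (edgeR, fit of 12 libraries with 1 shared spread). On the log2 scale, MAPKi response minus glutamine response, the differences were −1.59 for ZFP36L1, −1.48 for BTG1, −0.65 for BTG3, 1.01 for TOB1 and 0.70 for TOB2. For ZFP36L1 all MAPKi libraries lay below DMSO and all Gln-depleted libraries above CTRL. Each treatment was compared with its control within 1 sequencing batch, but batch and experiment cannot be told apart in the difference. Groups of 3 were too small for a search for single outlying libraries.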

How the results depend on the processing

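Without a fold limit, 10 of the 10 genes passed with MAPKi (5016 genes lower and 4839 higher over the table), and with a log2 limit of 1 it was 3 (1292 and 1017), against 5 (2368 and 2102) as reported. With both experiments fitted together, 1372 genes rose with MAPKi. With glutamine depletion 2 genes passed in place of 1, BTG1 and ZFP36L1, under DESeq2 size factors, all genes of the table, GC correction, the replicate block with or without GC correction, no fold limit, both experiments fitted together, experimental batch 2 alone, and TMM on genes with a mean count of at least 10, which was chosen after seeing the data. Against 263 lower and 436 higher as reported, the genes called with glutamine depletion were 1055 and 1183 without a limit, 63 and 194 with a log2 limit of 1, 50 and 172 at an adjusted p of 0.01, 906 and 790 when both experiments were fitted together, 640 and 730 within experimental batch 2, and 506 lower with GC correction.

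With the replicate block 981 genes were lower and 1107 higher with glutamine depletion (989 and 1010 with GC correction too), and 4056 genes had a lower response to MAPKi than to glutamine depletion, against 2643 without it. The block also called the CNOT6 and CNOT6L differences between responses, with or without GC correction, and changed no other call at the 1.5-fold limit among the 10 genes except ZFP36L1 with glutamine depletion and, with GC correction, ZFP36 with MAPKi. In the MAPKi experiment same-numbered libraries correlated at 0.0687, 0.0579 and 0.0565, under the 0.1 asked for. Each nevertheless correlated best with its own, and the other pairs ranged from −0.0365 to −0.0219. In both experiments the labels of the treated and control library of each replicate carry the same number, without saying what it stands for. The main fits did not use that number as a pair, and the replicate block did. Whether the MAPKi and DMSO libraries were paired in culture cannot be told from the number or from correlations this low.

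Leaving out 1 library in turn gave 4 to 5 genes with MAPKi, 1 to 2 with glutamine depletion and 3 to 5 for the difference. Genes called with glutamine depletion then ranged from 65 to 418 lower and from 195 to 489 higher. The sign was not stable for log2 fold changes near 0 that passed no test. With glutamine depletion these ranged from −0.22 to 0.21 for ZFP36L2, from −0.13 to 0.40 for TOB1 and from −0.21 to 0.28 for CNOT6L, and the differences ranged from −0.38 to 0.049 for ZFP36L2 and from −0.34 to 0.067 for BTG2. CNOT6L with glutamine depletion was −0.094 with GC correction, −0.085 with the block and GC correction, and −0.024 within experimental batch 2. With the longest transcript as length, the differences in family share were −9.73 points for ZFP36L1, 7.16 for BTG1, −16.7 for BTG3 and 6.90 for TOB1 with MAPKi, and −19.0 for BTG3 with glutamine depletion. The causes of these shifts were not tested. Counts of called genes in the decay lists stayed within 1.5 times under DESeq2. With the replicate block, added for the lists after seeing the data, the called genes with glutamine depletion were 1 of the decapping list against 0, 4 of the exosome and SKI list against 0, 4 of the adaptors against 1 and 14 of the AU-rich element mRNAs against 9. BTG1, TOB1 and TOB2 with MAPKi and BTG1 with glutamine depletion passed under each alternative run.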
